A study of Mus musculus with 8 samples.

Results

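The transcript levels of 10 genes that define epithelial-mesenchymal transition (EMT) were followed in bulk RNA-seq of mouse prostate tissue from wild type mice (WT, 3 libraries), mice with prostatic intraepithelial neoplasia (PIN, 3 libraries) and mice with prostatic adenocarcinoma (PCa, 2 libraries). The genes were chosen by symbol from the count table and comprise *Cdh1*, *Cdh2*, *Epcam*, *Vim*, *Fn1*, *Zeb1*, *Zeb2*, *Snai1*, *Snai2* and *Twist1*, which are 10 of the gene symbols among its 27036 entries, and 14034 entries passed the filter and were tested. The PIN and PCa tissues came from R26mTmG/hAR:Osr1Cre/+ mice (hARtg-Osr1Cre in the labels), in which Cre under the Osr1 promoter switches on a human androgen receptor transgene and a membrane fluorescent reporter at Rosa26. The WT mice were R26mTmG/+:Osr1Cre/+ animals, so they carried the same Cre and reporter without the transgene, and all mice were of a mixed strain background. Pieces of PIN and PCa tissue were chosen under the microscope as mostly atypical or tumor cells, and WT mice were matched to them in sex and age. The age of each sequenced animal was not given in the sources used here, and the study describes PCa in older mice than PIN, so lesion stage and age cannot be told apart. The comparisons ask how EMT genes differ between normal prostate, the preinvasive lesion and the tumor.

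In EMT, epithelial cells loosen their junctions and take on features of mesenchymal cells. The usual readout is a switch from E-cadherin (*Cdh1*) to N-cadherin (*Cdh2*) with loss of the epithelial adhesion molecule *Epcam* and gain of the intermediate filament vimentin (*Vim*) and the matrix protein fibronectin (*Fn1*). Transcription factors of the Snail (*Snai1*, *Snai2*), Zeb (*Zeb1*, *Zeb2*) and Twist families drive the switch, and Snail and Zeb proteins repress epithelial genes through E-box motifs.

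The promoters of a target gene and of a factor gene show this motif. The motif searched was CAGGTG or its reverse complement CACCTG, on either strand, in the 250 bases upstream of each RefSeq transcription start (GRCm38.p6 build). Of the 10 genes, 5 were in the promoter table (*Epcam*, *Vim*, *Zeb2*, *Snai1* and *Twist1*), and 2 of these held the motif. The window of *Epcam* held 2 matches, starting 187 and 19 bases upstream of the start, and that of *Snai1* held 1, starting 126 bases upstream. At least 1 match was present in 17.2% of all 32817 windows and at least 2 in 2.1%, so the matches are given as a description. Both lie on the plus strand, at chr17:87635729-87635978 (*Epcam*) and chr2:167537945-167538194 (*Snai1*), with the motif in capitals.
Epcam: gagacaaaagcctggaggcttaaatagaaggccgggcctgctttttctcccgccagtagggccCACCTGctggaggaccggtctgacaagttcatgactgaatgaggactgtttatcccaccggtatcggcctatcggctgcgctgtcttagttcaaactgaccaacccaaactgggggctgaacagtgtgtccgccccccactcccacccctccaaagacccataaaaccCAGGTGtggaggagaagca
Snai1: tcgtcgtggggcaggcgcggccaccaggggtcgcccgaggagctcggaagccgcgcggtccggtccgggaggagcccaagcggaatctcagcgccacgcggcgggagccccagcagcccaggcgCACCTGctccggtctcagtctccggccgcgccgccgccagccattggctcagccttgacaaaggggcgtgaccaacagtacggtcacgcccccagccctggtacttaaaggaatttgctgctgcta

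The libraries held 21751803 to 29730420 counts, and 3 counts, taken as the detection floor, corresponded to 0.0965 to 0.148 CPM (counts of a gene scaled to a common library size, with TMM factors). A few libraries stood apart from their groups. In PCa 1 and PCa 2, the smooth muscle markers summed to 59.4 and 38.5 CPM against 2050 to 5936 CPM in WT and PIN, and the luminal gene *Pbsn*, encoding probasin, was at 8.53 and 60.8 CPM against 6552 to 23970 CPM. The luminal keratin gene *Krt8* was present in both PCa libraries (453 and 333 CPM) and at 149 to 975 CPM in the other 6. Seminal vesicle transcripts summed to 14520 CPM in WT 1, 2757 CPM in PCa 1 and 94.3 CPM in PCa 2, and to at most 16.6 CPM in the other libraries. The gene 9530053A07Rik alone held 13.1% to 22.1% of the counts in WT and PIN libraries and at most 0.0114% in PCa. The library numbers in the labels fall into 3 stretches, holding WT 1, WT 2 and 3, and all PIN and PCa libraries. Whether these were separate batches is not given in the sources used here, and if they were, a difference from WT cannot be told apart from a difference between them. Nothing in the labels ties replicates to separate animals beyond their names, so p-values measure the spread between these samples. In bulk tissue, fewer cells of a type and less RNA per cell cannot be told apart.

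None of the EMT genes passed the test in any comparison. With edgeR's quasi-likelihood test, a gene was called at a Benjamini-Hochberg adjusted p under 0.05 and a log2 fold change beyond 1 in either direction. Of the 10 genes, *Cdh2* and *Zeb1* stayed under the filter, for which 2 or more libraries had to exceed 1 CPM, and 8 passed it. In PIN against WT, 0 of the 8 were called, beside 0% of all tested genes, with 0 at an unadjusted p under 0.05 and 0 by DESeq2 (beside 0.278% of all tested genes) or limma-trend. In PCa against WT, 0 of the 8 were called, beside 8.54% of all tested genes, and 3 had an unadjusted p under 0.05 (*Zeb2*, *Fn1* and *Twist1*), beside 27.5%. DESeq2 called these 3 genes in that comparison, beside 17.7% of all tested genes, and limma-trend called 0, beside 9.43%. In PCa against PIN, 0 were called, beside 5.72% of all tested genes, 2 had an unadjusted p under 0.05 (*Fn1* and *Zeb2*), beside 22.8%, DESeq2 called 1 (*Fn1*), beside 14.1%, and limma-trend 0, beside 7.13%. The 8 genes had a median log2 fold change of −0.08 (PIN over WT), −0.89 (PCa over WT) and −0.82 (PCa over PIN), beside −0.02, 0.01 and 0.07 over all tested genes. Leaving out PCa 1 gave 4 calls in each tumor comparison (*Vim*, *Zeb2*, *Snai2* and *Twist1*), beside 18.2% of all tested genes against WT and 16.6% against PIN, and leaving out any other single library, WT 1 included, gave 0. The plot of fitted differences shows how wide the standard errors were.

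**Figure D1:**
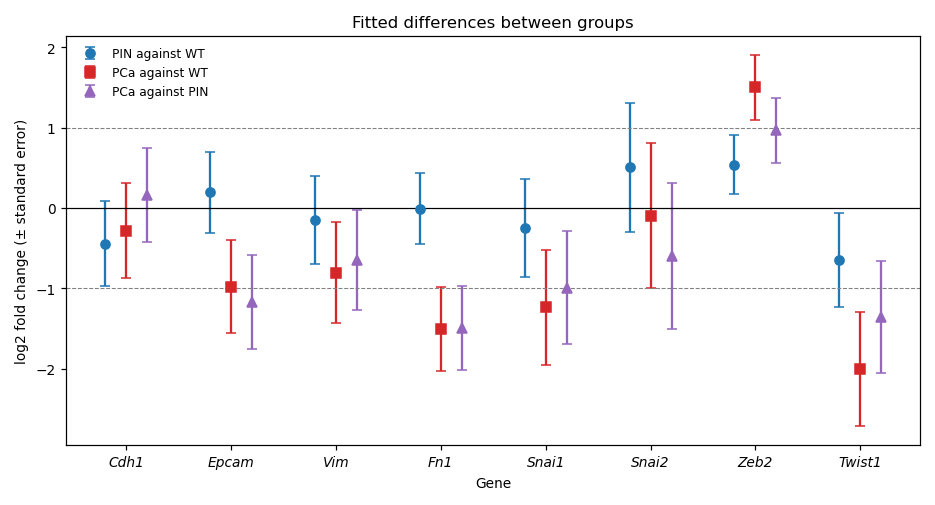
Fitted log2 fold change of the 8 tested EMT genes in the 3 comparisons, with bars of 1 standard error and dashed lines at the fold limits of −1 and 1. *Fn1*, *Snai1* and *Twist1* lie below −1 and *Zeb2* above 1 in PCa against WT, and no point passed the adjusted threshold.

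Per exon length, the epithelial genes stood far above the factors in every group. In TPM, which divides counts by exon length before scaling, WT means were 967 ± 426 (SD, n = 3) for *Epcam* and 429 ± 194 for *Cdh1*, at the 99.4th and 98.3rd percentiles of the tested genes. *Vim* and *Fn1* followed at 105 ± 48.5 and 83.3 ± 41.9 TPM, whose spreads overlapped. The factors lay between 2.40 TPM for *Snai1* and 5.54 TPM for *Snai2* in WT, with *Twist1* at 3.33 and *Zeb2* at 3.68 TPM, neighbours that did not differ beyond their spread. *Cdh2* was at 0.320 TPM. By group means in PCa, the order of the first 4 genes was the same (668, 479, 75.5 and 36.2 TPM), but in PCa 2 *Fn1* was above *Vim* (28.4 and 26.1 TPM). Among the factors *Snai2* was above *Zeb2* in PCa 1 (12.2 and 6.51 TPM) and *Zeb2* was highest in PCa 2 (20.5 TPM). The place of *Zeb2* rests on its listed 19659 exon bases (15368 in GENCODE vM1). In CPM it was above *Snai2* in PCa 1 (33.5 and 6.47).

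*Cdh1*, which holds adherens junctions together, showed no difference beyond its spread. In the mm9 build used for all genes it is annotated as ENSMUSG00000000303 at chr8:109127251-109194146 on the plus strand. Its level was 391, 1182 and 498 CPM in WT 1 to 3, 713, 401 and 407 CPM in PIN 1 to 3, and 801 and 334 CPM in PCa 1 and 2. The groups overlapped throughout, and the highest library was WT 2. The log2 fold change in PCa against WT was −0.28 (SE 0.59, adjusted p = 0.795), and it was 0.36 when libraries were scaled by their totals. WT 2 also had the highest luminal marker sum of the WT libraries (31930 CPM against 10400 and 17550) and the lowest fibroblast sum (682 CPM against 1764 and 939), and their part in its *Cdh1* level was not tested. Without WT 2 the log2 fold change in PCa against WT was 0.35.

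*Epcam*, an adhesion molecule of simple epithelia, was lowest in PCa 2 but did not pass the test. The gene is ENSMUSG00000045394 at chr17:88035319-88050446 on the plus strand. WT libraries held 449, 1192 and 448 CPM, PIN libraries 838, 486 and 1063 CPM, and PCa libraries 459 and 246 CPM. PCa 1 fell inside the WT range and PCa 2 below every other library, and both lay below all PIN libraries. Against WT, the log2 fold change in PCa was −0.98 (SE 0.58, adjusted p = 0.317), and against PIN it was −1.18 (SE 0.58, adjusted p = 0.281). In the latter comparison 3 of the 8 tested genes (*Epcam*, *Fn1* and *Twist1*) were lower in both PCa libraries than in all PIN libraries, beside 23.2% of all tested genes.

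*Cdh2* had at most 30 counts in any library. The gene is ENSMUSG00000024304 at chr18:16747386-16967755 on the minus strand. Its counts were 30, 7 and 18 in WT, 22, 15 and 17 in PIN, and 6 and 15 in PCa. In CPM the PCa values of 0.193 and 0.514 overlapped with the WT range of 0.317 to 1.48. Both lay below the PIN range of 0.517 to 0.792, but PCa 2 and PIN 2 had the same 15 counts. Fitted without a filter on low counts, the log2 fold change was −1.20 (SE 0.88, adjusted p = 0.473) in PCa against WT. The ratio of *Cdh2* to *Cdh1* in TPM, which a cadherin switch would raise, did not go above 0.00215 in any library, the value of WT 1. The log2 ratio was −10.6 ± 1.92 in WT (SD, n = 3), −10.4 ± 0.252 in PIN (n = 3) and −11.5 ± 1.89 in PCa (n = 2). Its difference was 0.25 in PIN against WT (exact two-sided permutation test, p = 0.9), −0.86 in PCa against WT (p = 0.7) and −1.11 in PCa against PIN (p = 0.4), in a design whose smallest exact p is 0.1.

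**Figure D2:**
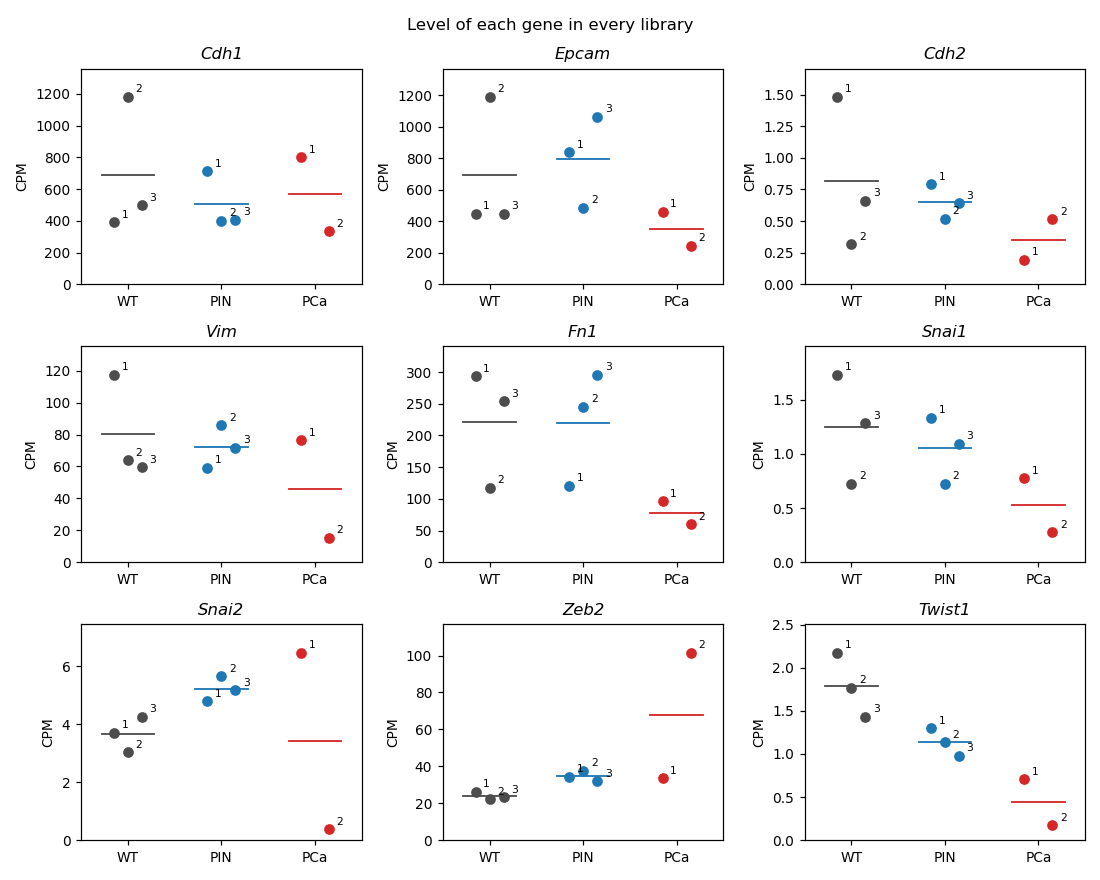
Level of 9 EMT genes in CPM (linear axes from 0) in each WT, PIN and PCa library, with the library number beside each point and a line at the group mean. *Twist1* steps down from WT to PIN to PCa without overlap, while *Vim*, *Snai2* and *Zeb2* are far apart between PCa 1 and PCa 2.

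*Vim*, the intermediate filament of mesenchymal cells, was at the WT and PIN level in one tumor library and lowest in the other. The gene is ENSMUSG00000026728 at chr2:13495554-13504453 on the plus strand. It was at 118, 63.9 and 59.4 CPM in WT, 59.2, 85.7 and 71.7 CPM in PIN, and 76.5 and 15.4 CPM in PCa. The PCa libraries differed 4.98-fold, where the median tested gene differed 1.54-fold between them. The log2 fold change in PCa against WT was −0.81 (SE 0.62, adjusted p = 0.448). It was −2.37 (adjusted p = 0.0183) without PCa 1 and −0.05 without PCa 2. Vimentin is also abundant in fibroblasts, leukocytes and endothelium. The fibroblast markers summed to 864 CPM in PCa 1 and 361 CPM in PCa 2 against 682 to 1764 CPM in WT. *Lum* (49.7 and 0.549 CPM) and *Pdgfra* (29.25 and 3.09 CPM) were lower in PCa 2 than in PCa 1, and *Col6a3* (9.04 and 9.70 CPM) was not. With all libraries in the fit, 0 of 7 were called in PCa against WT, beside 8.54% of all tested genes (1 by DESeq2, beside 17.7%, and 1 at an unadjusted p under 0.05, beside 27.5%). The leukocyte markers summed to 407 and 37.4 CPM in PCa 1 and 2 against 59.4 to 142 CPM in WT. With all libraries in the fit, 0 of 7 tested were called by edgeR, DESeq2 or unadjusted, beside 8.54%, 17.7% and 27.5% of all tested genes. The endothelial markers summed to 128 and 169 CPM in PCa 1 and 2 against 70.7 to 126 CPM in WT. The part of these cells in the *Vim* values was not tested.

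*Fn1*, the fibronectin gene of the extracellular matrix, had its 2 lowest values in the tumors. It is annotated as ENSMUSG00000026193 at chr1:71632094-71699774 on the minus strand. It was at 294, 118 and 254 CPM in WT, 120, 245 and 296 CPM in PIN, and 96.0 and 59.8 CPM in PCa. Both PCa libraries lay below all 6 others, by a small margin for PCa 1 against WT 2 and PIN 1. The tumors differed from WT by a log2 fold change of −1.51 (SE 0.52, adjusted p = 0.112) and from PIN by −1.50 (SE 0.52, adjusted p = 0.14), and PIN differed from WT by −0.01 (SE 0.44, adjusted p = 1). DESeq2 gave adjusted p-values of 0.026 and 0.0312 for the tumor comparisons. In PCa against WT, 2 of the 8 tested genes (*Fn1* and *Twist1*) were lower in both PCa libraries than in all WT libraries, beside 19.6% of all tested genes. Among annotated exons, 3.5% of the *Fn1* bases overlap a gene on the other strand, and whether counting used strand was not given. Smooth muscle, which also makes fibronectin, had 6 of its 7 markers called lower in both tumor comparisons, beside 4.18% of all tested genes against WT and 3.17% against PIN, and its part in the *Fn1* values was not tested.

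*Snai1* and *Twist1*, factors of the Snail and Twist families, were expressed at few counts. They are annotated as ENSMUSG00000042821, chr2:167363695-167368314 and ENSMUSG00000035799, chr12:34642536-34644682, both on the plus strand. *Snai1* had 35, 16 and 35 counts in WT, 37, 21 and 29 in PIN, and 24 and 8 in PCa. The factor reached a log2 fold change of −1.24 (SE 0.71, adjusted p = 0.303) in PCa against WT, and PCa 1 at 0.772 CPM lay inside the WT range of 0.725 to 1.73 CPM. *Twist1* had 44, 39 and 39 counts in WT, 36, 33 and 26 in PIN, and 22 and 5 in PCa, or 2.18, 1.77 and 1.43 CPM, 1.30, 1.14 and 0.979 CPM, and 0.708 and 0.171 CPM. The 3 groups of *Twist1* did not overlap, with WT highest and PCa lowest. No step passed the test, with log2 fold changes of −0.65 (SE 0.59, adjusted p = 1) in PIN against WT, −1.36 (SE 0.69, adjusted p = 0.292) in PCa against PIN and −2.01 (SE 0.71, adjusted p = 0.117) in PCa against WT. DESeq2 gave an adjusted p of 0.033 in PCa against WT. In PIN against WT, 1 of the 8 tested genes (*Twist1*) was lower in all PIN libraries than in all WT libraries, beside 6.38% of tested genes, and 2 (*Zeb2* and *Snai2*) were higher in all, beside 6.48%.

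*Snai2*, encoding Slug, differed more between the PCa libraries than any other EMT gene. The gene is ENSMUSG00000022676 at chr16:14705945-14709488 on the plus strand. It was at 3.71, 3.04 and 4.25 CPM in WT, 4.79, 5.65 and 5.16 CPM in PIN, 6.47 CPM in PCa 1 (201 counts) and 0.377 CPM in PCa 2 (11 counts). PCa 1 was the highest and PCa 2 the lowest of the 8 libraries, 17.2-fold apart. The log2 fold change in PCa against WT was therefore near 0 with a wide error (−0.10, SE 0.90, adjusted p = 0.96), and it was 0.83 without PCa 2 and −3.25 (adjusted p = 0.00959) without PCa 1. Slug is known in basal epithelial cells, whose markers summed to 604 CPM in PCa 1 and 27.4 CPM in PCa 2 against 167 to 216 CPM in WT. Of these markers, *Krt15* was at 367.5 and 1.13 CPM in PCa 1 and 2, *Krt5* at 117 and 4.70 CPM, *Krt14* at 74.3 and 0.309 CPM, and *Trp63* at 46.0 and 21.3 CPM. With all libraries in the fit, 0 of the 4 basal markers were called in PCa against WT by edgeR, DESeq2 or unadjusted. Of all tested genes these called 8.54%, 17.7% and 27.5%. The part of basal cells in the *Snai2* values was not tested.

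*Zeb2*, a zinc finger repressor of *Cdh1*, was the only tested EMT gene with a positive log2 fold change in PCa against WT with TMM factors and all libraries. The gene is ENSMUSG00000026872 at chr2:44839154-44972915 on the minus strand. It was at 26.2, 22.1 and 23.3 CPM in WT, 34.2, 37.6 and 31.9 CPM in PIN, and 33.5 and 102 CPM in PCa. All PIN and PCa libraries lay above all WT libraries, but PCa 1 was within the PIN range and PCa 2 alone was far above it. In PCa against WT, *Zeb2* was the 1 of 8 tested genes higher in both PCa libraries than in all WT libraries, beside 17.7% of tested genes. PIN differed from WT by a log2 fold change of 0.54 (SE 0.37, adjusted p = 1), PCa from WT by 1.50 (SE 0.40, adjusted p = 0.06) and PCa from PIN by 0.97 (SE 0.40, adjusted p = 0.207). Without PCa 2, the last 2 were 0.51 and −0.02, and without PCa 1 they were 2.1 (adjusted p = 0.00185) and 1.57 (adjusted p = 0.00506). The ratio of *Zeb2* to *Snai2* in TPM was 0.536 to 0.751 in 7 libraries and 27.8 in PCa 2. *Zeb2* is also expressed in leukocytes and endothelial cells. In PCa 2 the leukocyte marker sum was the lowest of all libraries (37.4 CPM, with *Ptprc* at 5.01 CPM), and the endothelial sum was 169 CPM against 70.7 to 138 CPM elsewhere. Of the 7 endothelial markers, 6 had a positive log2 fold change in PCa against WT (median 0.89). By edgeR 0 were called higher and 1, *Emcn*, lower, beside 4.35% and 4.18% of all tested genes. *Emcn* was at 21.7 to 54.2 CPM in WT and 9.20 and 11.1 CPM in PCa (adjusted p = 0.0371). Its call ended with only WT and PCa in the fit, with the replicate block, and without WT 2, WT 3 or any PIN library. *Vwf*, *Cdh5* and *Kdr* had their highest levels of the 8 libraries in PCa 2 (67.8, 27.8 and 24.3 CPM), and *Pecam1*, *Tie1* and *Tek* did not, with *Pecam1* at 26.5 CPM against 53.8 CPM in PCa 1, *Tie1* at 7.54 CPM below WT 1, and *Tek* at 3.43 CPM against 9.84 CPM in WT 1. The part of these cells in the *Zeb2* values was not tested. In GENCODE vM1, 3.01% of the 15368 exon bases of *Zeb2* overlap other genes, but the table gives it 19659 exon bases, so the overlap of the model counted is not known.

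**Figure D3:**
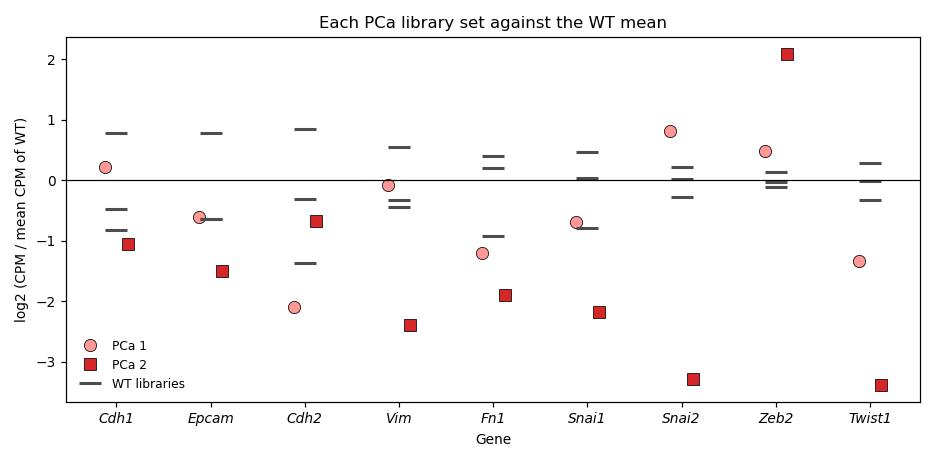
Log2 ratio of each PCa library to the mean CPM of WT for 9 EMT genes, with dashes for the single WT libraries around their own mean at 0. PCa 2 lies below all WT libraries for *Cdh1*, *Epcam*, *Vim*, *Fn1*, *Snai1*, *Snai2* and *Twist1* and far above them for *Zeb2*, while PCa 1 lies within the WT libraries for *Cdh1*, *Epcam*, *Vim* and *Snai1*.

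*Zeb1*, the sister gene of *Zeb2*, could not be measured from this table. It has 2 overlapping entries on the same strand of chromosome 18, which span bases 5591858 to 5775465 and 5591870 to 5775741 (mm9 build). The first entry was listed at 0 counts in all 8 libraries, and the second at 0, 0 and 2 counts in WT, 0, 1 and 3 in PIN, and 0 and 5 in PCa. By default, HTSeq leaves out reads that fit more than 1 gene. Of 29 such pairs of entries sharing a symbol, a strand and at least 90% of their span, 23 were at or below 1 CPM in every library, whereas 55.9% of all other entries were above 1 CPM in at least 1 library. The values of *Zeb1* are therefore not read as its level.

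The wider EMT program was followed in 6 lists, and 0 genes of any list were called in PIN against WT by edgeR, DESeq2 or limma-trend. In the fits without a tumor library that are given with each list, 18.2% (without PCa 1) and 10.1% (without PCa 2) of all tested genes were called against WT, and 16.6% and 7.05% against PIN. Of the 12 genes of adherens junctions and desmosomes, 0 were called in PCa against WT, beside 8.54% of all tested genes, with 3 at an unadjusted p under 0.05 (beside 27.5%), 2 by DESeq2 (17.7%) and 0 by limma-trend (9.43%). Against PIN 0 were called, beside 5.72%, with 4 unadjusted (22.8%), 1 by DESeq2 (14.1%) and 0 by limma-trend (7.13%). Without PCa 1, 2 of them were called in each tumor comparison, and without PCa 2, 1 against WT and 0 against PIN. Their median log2 fold change was 0.19 in PCa against WT. Among 13 regulators of epithelial identity, 2 fell in PCa against WT and 0 rose, beside 4.18% and 4.35% of all tested genes called in these directions. Limma-trend called the same 2, DESeq2 called 2 lower and 2 higher (*Elf3* and *Klf5*), and with libraries scaled by their totals 0 were called lower and 3 higher (*Elf3*, *Esrp2* and *Klf5*), under which the median of all genes was 0.56. The 2 called lower by edgeR were *Ehf*, an ETS factor of epithelia, and *Rab25*, a GTPase of epithelial recycling endosomes. *Ehf* went from 1387, 1011 and 2045 CPM in WT and 1510, 1869 and 2112 CPM in PIN to 481 and 215 CPM in PCa, with a log2 fold change of −2.09 (SE 0.49, adjusted p = 0.0417) against WT and −2.39 (SE 0.50, adjusted p = 0.038) against PIN. *Rab25* went from 116, 121 and 91.6 CPM in WT to 30.2 and 51.0 CPM in PCa, a log2 fold change of −1.43 (SE 0.28, adjusted p = 0.0256). The call against WT held in 7 of 18 alternative settings for *Ehf* and 10 for *Rab25*, with adjusted p-values up to 0.154 and 0.119. Both ended when WT 1, WT 3 or any PIN library was left out, with only WT and PCa in the fit, with the replicate number as a block and with library totals. That of *Ehf* also ended without PCa 2 (log2 fold change −1.61, adjusted p = 0.0927), with upper-quartile scaling and with totals that leave out 9530053A07Rik. Against PIN, the *Ehf* call held in 8 of 18, with adjusted p-values up to 0.133, and ended without WT 1, WT 3, PCa 2 or any PIN library. Without PCa 1 or without PCa 2, regulators were called in both directions in each tumor comparison. With all libraries the other regulators did not pass, and the list's median was 0.77, above 0 although both calls were lower.

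Of 12 further transcription factors tied to EMT, 9 were tested, and 2 rose in PCa against WT, beside 4.35% of all tested genes. DESeq2 called 4, with *Tcf3* and *Tcf4*, beside 17.7% called in either direction, and limma-trend 1, beside 9.43%. Without PCa 1, 5 of them were called in each tumor comparison, and without PCa 2, 3 in each tumor comparison. The forkhead factor *Foxc1* was at 4.55, 3.67 and 4.06 CPM in WT, 8.78, 6.99 and 7.95 CPM in PIN, and 40.3 and 46.6 CPM in PCa. Its log2 fold change was 3.41 (SE 0.24, adjusted p = 0.00325) against WT and 2.46 (SE 0.24, adjusted p = 0.00563) against PIN, and the call held in all 18 alternative settings. The SOX factor gene *Sox4* was at 24.9 to 36.9 CPM in WT, 24.6 to 55.1 CPM in PIN, and 403 and 67.3 CPM in PCa, a log2 fold change of 2.94 (SE 0.68, adjusted p = 0.0403) against WT. Without PCa 1 it was 1.14 (adjusted p = 0.121), and the call held in 8 of 18 alternative settings, ending also when any WT or PIN library was left out, with adjusted p-values up to 0.127. In PCa against PIN, 2 of these factors were called higher and 0 lower, beside 2.55% and 3.17% of all tested genes, namely *Foxc1* and *Tcf3*, an E protein that pairs with Twist factors. *Tcf3* was at 26.4, 28.2 and 25.8 CPM in PIN and 76.1 and 49.1 CPM in PCa (log2 fold change 1.22, SE 0.27, adjusted p = 0.0445). That call ended without PCa 1 (log2 fold change 0.89, adjusted p = 0.0761), WT 3 or any PIN library and held in 8 of 18 alternative settings, with adjusted p-values up to 0.17.

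**Figure D4:**
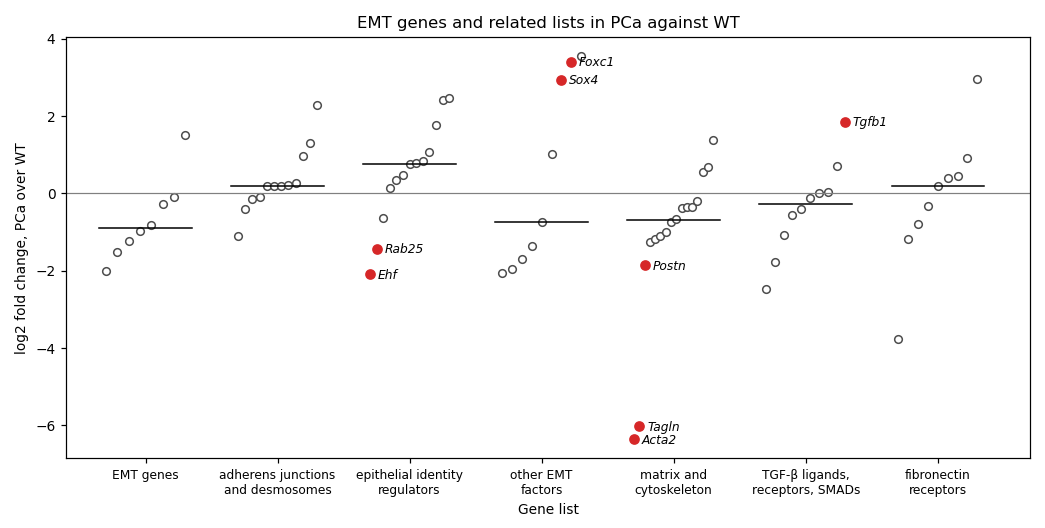
Log2 fold change in PCa over WT of the tested EMT genes and of the genes of 6 related lists, each point a gene, with filled points for called genes and a line at each list's median. *Foxc1*, *Sox4* and *Tgfb1* lie above 0 and *Ehf*, *Rab25*, *Postn*, *Tagln* and *Acta2* below it among the called genes.

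Of 16 mesenchymal matrix and cytoskeleton genes, edgeR called 3 lower and 0 higher in the comparison with WT and the same in the comparison with PIN, beside 4.18% and 4.35% of all tested genes against WT and 3.17% and 2.55% against PIN. DESeq2 called 4 of the 16 in both, these 3 among them, beside 17.7% and 14.1%. Without PCa 1, edgeR called 6 lower in each tumor comparison, and without PCa 2, 2. Smooth muscle actin (*Acta2*) was at 417 to 1019 CPM in WT, 727 to 1255 CPM in PIN, and 11.4 and 8.06 CPM in PCa, a log2 fold change of −6.36 (SE 0.61, adjusted p = 0.00474) against WT. Transgelin (*Tagln*) was at 419 to 689 CPM in WT, 437 to 854 CPM in PIN, and 14.7 and 3.26 CPM in PCa, with −6.02 (SE 0.80, adjusted p = 0.00867), a call that ended with only WT and PCa in the fit (adjusted p = 0.0526). Both are smooth muscle markers, a list with 6 of 7 genes called lower. Periostin (*Postn*) was at 43.6 to 65.5 CPM in WT, 43.6 to 101 CPM in PIN, and 17.9 and 10.8 CPM in PCa, with −1.85 (SE 0.44, adjusted p = 0.0417). The *Postn* call held in 7 of 18 alternative settings against WT and 8 against PIN, with adjusted p-values up to 0.129 and 0.113. Leaving out any library other than PIN 2 and PCa 1 ended it against WT, and leaving out any other than WT 2 and PCa 1 ended it against PIN.

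TGF-β signaling is a known inducer of EMT, and of 10 tested ligands, receptors and SMADs, edgeR called 1 higher and 0 lower against WT, beside 4.35% and 4.18% of all tested genes, and the same against PIN, beside 2.55% and 3.17%. DESeq2 and limma-trend also called *Tgfb2* and *Tgfbr3* lower against WT, and against PIN DESeq2 called both lower and limma-trend *Tgfbr3* alone. Without PCa 1, 4 were called against WT and 3 against PIN, and without PCa 2, 3 in each tumor comparison. *Tgfb1* was at 11.8, 8.97 and 7.65 CPM in WT, 13.3, 9.37 and 9.64 CPM in PIN, and 32.9 and 35.8 CPM in PCa. Its log2 fold change was 1.86 (SE 0.28, adjusted p = 0.0123) against WT and 1.67 (SE 0.28, adjusted p = 0.0232) against PIN, and the PCa libraries lay close together. The call against WT held in 16 of 18 alternative settings, ending without WT 3 (adjusted p = 0.0504) and with only WT and PCa in the fit (0.0727). The call against PIN held in 14, ending without any one PIN library (up to 0.113) and with the replicate number as a block (0.074). Of the 9 fibronectin receptor subunits, 0 were called in PCa against WT, beside 8.54% of all tested genes, with 3 unadjusted (beside 27.5%), 2 by DESeq2 (17.7%) and 1 by limma-trend (9.43%). Against PIN 0 were called, beside 5.72%, with 2 unadjusted (22.8%), 1 by DESeq2 (14.1%) and 1 by limma-trend (7.13%). Without PCa 1, 1 was called in each tumor comparison, and without PCa 2, 2 against WT and 1 against PIN.

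**Figure D5:**
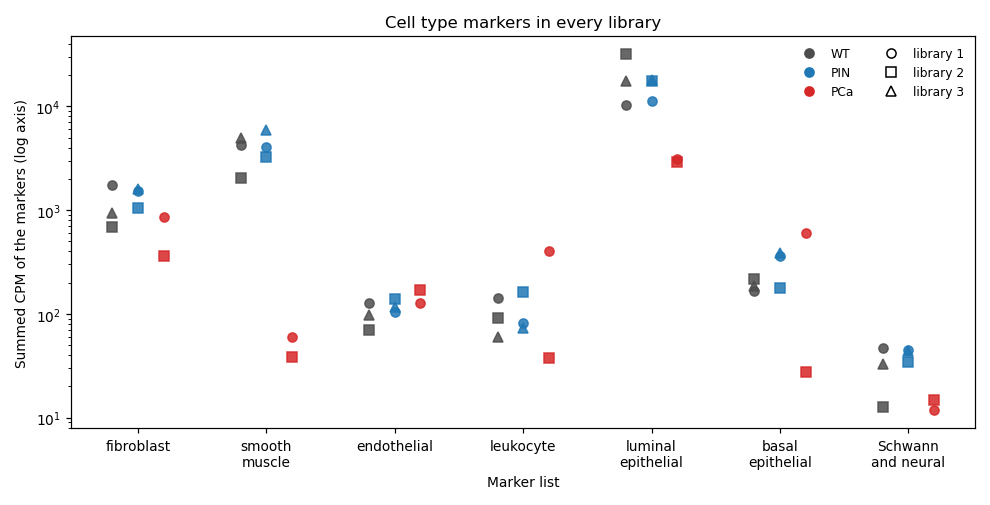
Summed CPM of 7 lists of cell type markers in each library on a log axis, with color for the group and shape for the library number. Smooth muscle and luminal sums are lower in both PCa libraries than in all others, while leukocyte and basal sums are above all others in PCa 1 and below all others in PCa 2. The luminal sum includes *Pbsn* (6552 to 23970 CPM in WT and PIN, 8.53 and 60.8 CPM in PCa), whereas *Krt8* in PCa (453 and 333 CPM) was within the range elsewhere.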

How the data were processed

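RNA-seq libraries were made after ribosomal RNA removal from 3 WT, 3 PIN and 2 PCa prostate tissues. The authors deposited a table of raw read counts per gene, and the submitters' processing notes name cutadapt 1.9.1, HISAT2 2.1.0, HTSeq 0.6.1 and the mm9 build, while strand settings and the annotation version were not given in the sources used here. Exon lengths of 98.1% of 26559 matched entries equal those of GENCODE vM1 on NCBIM37. From the deposited counts, CPM with TMM factors and TPM were computed, genes above 1 CPM in at least 2 libraries were kept, and 1 model of 3 groups over all 8 libraries was fitted with edgeR 4.0.16 (R 4.3.3; quasi-likelihood F test, Benjamini-Hochberg adjustment over all tested genes). Standard errors were derived from the fold change and its F statistic. Alternatives used DESeq2 1.42.0, limma 3.58.1, other scalings and filters, a replicate block and each library left out. Scripts were tested on simulated counts. Detection floors cover counting error only.

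The EMT genes and all lists were chosen with earlier results of these data known. Genes named were all EMT genes and, for each list, those called in a tumor comparison, with marker genes where a result turned on them; *Sox4* has a second entry at 0 counts and an antisense neighbour, and the entry with counts was used.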

Additional observations from a re-analysis of the deposited data

How the results depend on the processing

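No EMT gene was called in PIN against WT in any of 18 alternatives. In PCa against WT, DESeq2 called 3, library totals without TMM 1 and library totals without the most abundant gene 1 (*Zeb2* in both), and leaving out libraries gave 0 to 4. In PCa against PIN, DESeq2 called 1, and leaving out libraries gave 0 to 4. The 4 in each comparison (*Vim*, *Zeb2*, *Snai2* and *Twist1*) arose without PCa 1, where PCa 2 is the lone tumor library and is assumed to vary like the other groups; without PCa 2 the count was 0. The *Cdh2* to *Cdh1* log2 ratio differences ranged over −0.77 to 1.14 in PIN against WT, −2.20 to 0.48 in PCa against WT and −2.44 to 0.23 in PCa against PIN when libraries were left out.

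Signs reversed as follows, always for values that were not called. In PIN against WT, *Vim* was 0.02 with the replicate block and 0.02 with library totals, and *Fn1* was 0.02 with upper quartiles, 0.00 with DESeq2, 0.00 without a filter, 0.05 with the block, 0.13 with library totals and 0.03 without the most abundant gene. In PCa against WT, *Cdh1* was 0.36 and 0.05 and *Snai2* 0.49 and 0.15 with the same 2 scalings, which moved the median of all genes to 0.56 and 0.23. Library totals moved that median to 0.42 in PCa against PIN and 0.18 in PIN against WT. In PCa against PIN, *Cdh1* was −0.03 with the block. When libraries were left out, PIN against WT gave −0.78 to 0.19 for *Cdh1*, −0.07 to 0.83 for *Epcam*, −0.33 to 0.23 for *Vim*, −0.31 to 0.28 for *Fn1* and −0.52 to 0.06 for *Snai1*. PCa against WT gave −1.04 to 0.35 for *Cdh1* and −3.25 to 0.83 for *Snai2*. PCa against PIN gave −0.59 to 0.68 for *Cdh1*, −2.22 to 0.11 for *Vim*, −0.02 to 1.57 for *Zeb2* and −3.75 to 0.34 for *Snai2*. The causes were not tested.

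The mean correlation of deviations from group means was 0.0992 for equal replicate numbers (−0.0562 to 0.2843) and −0.0505 for unequal numbers (−0.2843 to 0.1643). Deviations within a group mirror each other, so this check cannot settle whether the numbers pair samples. With the replicate block 0 EMT genes were called in each comparison. Over all genes the calls went from 1198 to 413 (PCa against WT) and from 803 to 151 (PCa against PIN). Those counts reached 2487 and 1984 with DESeq2 and, with only the compared groups in the fit, were 130 and 388. The block ended the calls of *Rab25*, *Ehf*, *Sox4* and *Postn* against WT and of *Ehf*, *Postn*, *Tcf3* and *Tgfb1* against PIN. The alternatives for list genes were added after their values were seen. In PCa against WT, the call held in 18 of 18 alternatives for *Foxc1* and *Acta2*, 17 for *Tagln*, 16 for *Tgfb1*, 10 for *Rab25*, 8 for *Sox4* and 7 each for *Ehf* and *Postn*. In PCa against PIN it held in 18 for *Foxc1*, *Acta2* and *Tagln*, 14 for *Tgfb1*, and 8 each for *Ehf*, *Postn* and *Tcf3*. *Snai1*, *Twist1* and *Cdh2* rest on at most 44 counts a library.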

Other observations

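Several genes of the related lists, chosen here after their values were seen, also set the tumor libraries apart. *Tcf4*, an E protein that can induce EMT, was at 46.1 to 93.4 CPM in WT, 91.3 to 135 CPM in PIN, 72.4 CPM in PCa 1 and 1539 CPM in PCa 2. Its log2 fold change in PCa against WT was 3.55 (SE 0.99, edgeR adjusted p = 0.0657), so it was not called. *Twist2*, the relative of *Twist1*, was at 1.58 CPM in PCa 1 and at 1 count in PCa 2, against 1.31 to 3.56 CPM in WT. P-cadherin (*Cdh3*), a basal cell cadherin, had 614 counts in PCa 1 and 11 in PCa 2, and 233 to 268 in WT. Lumican (*Lum*), a fibroblast proteoglycan, was at 49.7 and 0.549 CPM in PCa 1 and 2 against at least 15.7 CPM in WT.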
